A study of Mus musculus with 8 samples.

Results

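Arteries hold macrophages that were there before any plaque formed, together with macrophages that arise from blood monocytes during atherosclerosis. The former lie mainly in the adventitia, the outer coat of the vessel, are self-maintaining for long periods under the growth factor CSF1, and are recognised by receptors for scavenging, hyaluronan, folate and dying cells. The latter take up lipoprotein in the intima and become foam cells, which switch on genes of lipid handling and matrix breakdown. The genes described here are 10 of 21859 in the count tables, taken by symbol from a list of genes of resident tissue macrophages: Cd5l, Cd163, Mrc1, Lyve1, Timd4, Folr2, F13a1, Cbr2, Gas6 and Adgre1. All 10 passed the filter on low counts, among 15077 genes that did, Cd5l only through its counts in ApoE-/- mice.

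RNA came from the whole aortas of 4 ApoE-/- and 4 wild-type (WT) male mice, all C57BL/6, 40 weeks old and kept on a normal chow diet, with 1 mouse per library. ApoE-/- mice lack apolipoprotein E, which clears lipoprotein remnants from the blood, in every cell of the body, including macrophages, which make it themselves. The whole vessel wall was extracted, so neither the layer nor the cell type of a transcript was measured, and fewer cells of a type cannot be told apart from less RNA per cell. Levels are TMM-normalized CPM, the read pairs of a gene scaled to a common library size, and log2 fold changes are ApoE-/- against WT from edgeR's quasi-likelihood test, each with its standard error (SE), with p-values adjusted by the Benjamini-Hochberg method over all 15077 genes.

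Each ApoE-/- library held 23240995 to 23940156 read pairs on genes and each WT library 18375898 to 21664598. Apoe itself lay between 14.7 and 36.3 CPM in ApoE-/- mice and between 536 and 857 CPM in WT mice (log2 fold change -4.83, SE 0.37, adjusted p = 0.0141), so it was low in the mice labelled as knockouts. The 12 general macrophage genes used below as a reference (Cd68, Csf1r, Fcgr1, Mertk, C1qa, C1qb, C1qc, Tyrobp, Fcer1g, Aif1, Lyz2 and Cd14) summed to 497, 970.5, 1186 and 2116 CPM in ApoE-/- mice 1 to 4 and to 387 to 459.8 CPM in WT mice. ApoE-/- mouse 1 stood apart in the muscle of the wall as well, with 5048 CPM summed over 6 smooth muscle genes against 12552 to 20563 in the other ApoE-/- mice and 11174 to 20874 in WT mice. Cardiac muscle genes were carried by all libraries and summed to 155 to 336 CPM in ApoE-/- and 393 to 660.0 CPM in WT mice. Their part in the results was not tested.

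Of the 10 resident macrophage genes, 9 had a log2 fold change above 0, as had 58.0% of all genes tested, and none passed the adjusted threshold of 0.05 in edgeR, which called 0.464% of all genes tested (0.371% higher and 0.0929% lower). The unadjusted p was under 0.05 for 4 of them (Cd5l, Adgre1, Mrc1 and Gas6), all higher in ApoE-/- mice, against 11.4% of all genes in either direction and 7.19% higher. DESeq2 called 2, Cd5l and Adgre1, both higher in ApoE-/- mice, against 4.81% of all genes in either direction and 3.12% higher. In 3 genes (Cd5l, Adgre1 and Mrc1) every ApoE-/- mouse lay above every WT mouse, which held for 5.41% of all genes, and in 0 genes every ApoE-/- mouse lay below, against 3.3% of all genes. The median log2 fold change was 0.50 for the 10 genes and 0.05 for all genes tested. So Cd5l stood far from the other 9, whose log2 fold changes ran from -0.04 to 1.27.

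**Figure D1:**
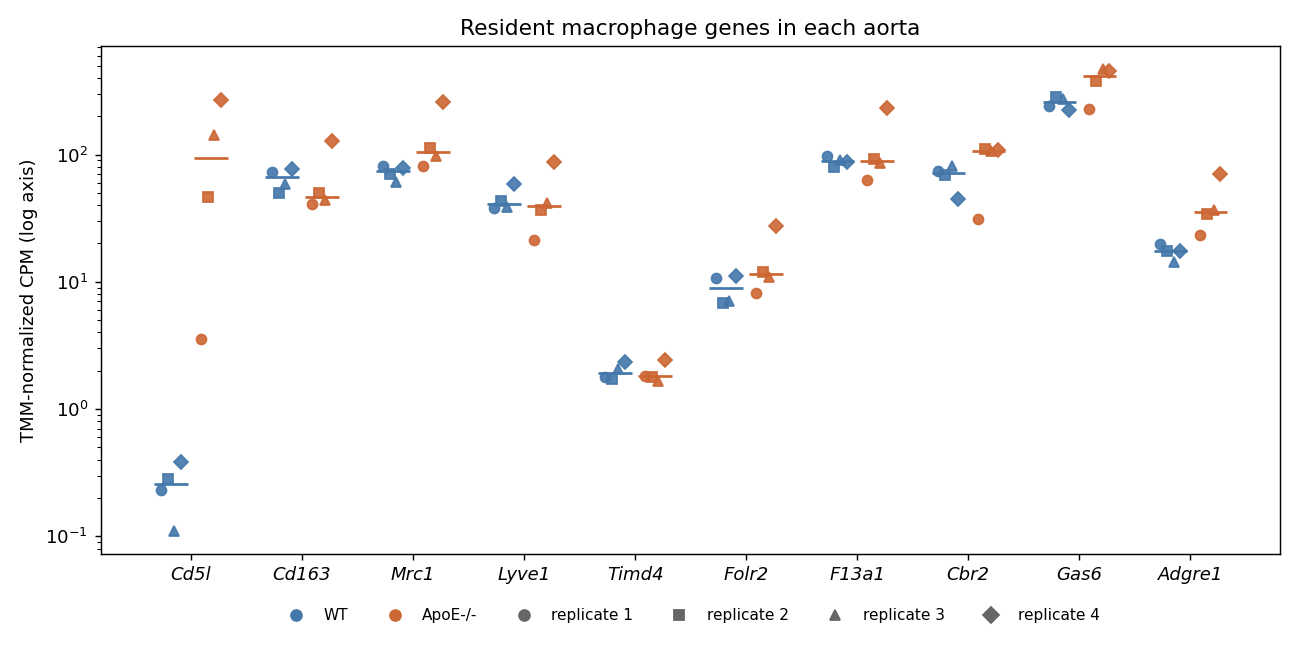
TMM-normalized CPM, on a log axis, of the 10 resident macrophage genes in each of 4 WT (blue) and 4 ApoE-/- (orange) aortas, with the marker shape giving the replicate and the bar the median of the group. Cd5l runs from 0.111 to 0.383 CPM in WT and from 3.53 to 267 CPM in ApoE-/- mice, while the groups of the other genes touch or overlap, except Adgre1 and, narrowly, Mrc1.

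Cd5l encodes a secreted scavenger receptor cysteine-rich protein, also called apoptosis inhibitor of macrophages, which lipid-laden and tissue macrophages make under the control of liver X receptors. The gene (ENSMUSG00000015854.7) lies on the plus strand at chr3:87357881-87371073 of GRCm38. Because its change was the one far outside those of the other genes, the sequence around its start is shown, from 250 bases before to 50 after, as chr3:87357631-87357930 of GRCm38.p6 on the plus strand, from RefSeq. The promoter of Timd4, chr11:46810549-46810848 on the plus strand, is shown beside it as that of a gene whose level hardly differed. Capitals mark matches on either strand to AGGTCA (a nuclear receptor half-site) and GAGGAA (a PU.1 core).
Cd5l: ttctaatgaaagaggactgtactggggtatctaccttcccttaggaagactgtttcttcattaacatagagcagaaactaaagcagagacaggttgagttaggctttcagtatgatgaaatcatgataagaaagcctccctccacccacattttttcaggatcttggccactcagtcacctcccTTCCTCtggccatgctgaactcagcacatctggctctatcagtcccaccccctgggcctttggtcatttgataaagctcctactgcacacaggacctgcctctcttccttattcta
Timd4: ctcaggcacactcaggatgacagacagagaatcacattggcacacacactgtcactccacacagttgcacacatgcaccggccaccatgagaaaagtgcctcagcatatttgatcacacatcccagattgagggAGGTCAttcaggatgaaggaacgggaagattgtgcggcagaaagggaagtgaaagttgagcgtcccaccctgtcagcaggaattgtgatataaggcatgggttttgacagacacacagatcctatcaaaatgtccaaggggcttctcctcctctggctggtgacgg
GAGGAA was present in 28.3% of all 32851 promoter windows of this length and in 5 of the 10 windows of the 8 genes that had a promoter in the table (Cd5l, Mrc1, both windows of F13a1, and Cbr2), and AGGTCA in 16.3% of all windows and in 1 of the 10 (Timd4). A match is a description of the letters and not of a bound site.

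Cd5l was counted on 5, 6, 2 and 8 read pairs in WT mice 1 to 4, and on 87, 1067, 3271 and 6142 in ApoE-/- mice 1 to 4. On the CPM scale these are 0.229, 0.281, 0.111 and 0.383 in WT mice, against 3.53, 46.7, 142 and 267 in ApoE-/- mice. All 4 ApoE-/- mice were above all 4 WT mice, and they differed 75.5-fold among themselves, with mouse 1 far below the rest. The fitted log2 fold change was 8.79 (SE 1.42), with a 95% confidence interval of 5.52 to 12.05, and the fold rests on a WT level of a few read pairs per library, 1 of them with no more than 3. The edgeR test gave an adjusted p of 0.0523, just above the threshold and so uncalled, and DESeq2 gave 1.75e-12. Since Cd5l entered the test only through the ApoE-/- mice, it had to differ in order to be tested, and a filter of at least 10 counts in every mouse removes it. Without ApoE-/- mouse 1 the edgeR adjusted p was 0.00336, in a fit that called 417 genes higher and 176 lower, and over all fits that left out 1 mouse it ran from 0.00336 to 0.189. It was 0.048 without robust estimation and 0.369 in limma-voom.

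By the likeness of the profile over the 8 mice (the root mean square difference of log2 CPM, each gene centred on its own mean), the genes closest to Cd5l were Mmp12, a macrophage elastase, at 1.37, Mmp13, a collagenase, at 1.54, and Grin2a, a glutamate receptor subunit, at 1.80. Mmp12 lay at 9.21, 59.7, 89.1 and 140 CPM in ApoE-/- mice 1 to 4 and at 0.527 to 1.73 CPM in WT mice. For Mmp12 the fitted log2 fold change was 5.82 (SE 0.85, adjusted p = 0.0396). The closest of the other resident genes, Adgre1, came at rank 226, at 3.35. The measure is not scaled for the size of a change, so a gene with a small change could not come close to Cd5l. Even its closest gene was far off beside those of the other 9, which lay at 0.06 (Timd4) to 0.21 (Lyve1).

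Cd5l is also made by macrophages of the spleen, the liver and the serous cavities, whose defining genes were therefore measured. Clec4f, of Kupffer cells, was at 0 in 7 of 8 libraries. Marco was highest in a WT mouse, at 1.24 CPM, and did not exceed 0.26 CPM in ApoE-/- mice, Spic, of red pulp macrophages, was at most 0.734 CPM in any mouse, and Alb of hepatocytes was at most 0.84 CPM. Other genes of these lists were present and uncalled, among them Slc40a1, the iron exporter (10.7 to 29.9 CPM in ApoE-/- and 10.7 to 21.9 CPM in WT mice), Hmox1, haem oxygenase (13.2 to 46.5 CPM and 10.6 to 22.5 CPM, log2 fold change 0.53, SE 0.44), and Ahsg, a plasma glycoprotein of hepatocytes (3.61 to 7.42 CPM and 3.30 to 4.65 CPM, log2 fold change 0.48, SE 0.26). Gata6, of serous cavity macrophages but also made by smooth muscle, had a log2 fold change of 0.02 (SE 0.36), whereas Prg4, lubricin, which fibroblasts and mesothelium make too, rose from 7.44 to 11.5 CPM in WT mice to 32.8 to 70.6 CPM in ApoE-/- mice (log2 fold change 2.57, SE 0.26, adjusted p = 0.0353). Prg4 was the only one called by edgeR of the 6 serous cavity genes tested, whose median log2 fold change was -0.07.

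Of 6 genes of the liver X receptor axis, 0 were called by edgeR and 2 by DESeq2, both higher. Of the log2 fold changes 5 of 6 were above 0, and the median was 0.32, well below those of the 2 called genes. Abcg1, a cholesterol exporter induced by liver X receptors, lay at 62.3 to 136 CPM in ApoE-/- mice and 27.5 to 49.3 CPM in WT aortas (log2 fold change 1.40, SE 0.30, edgeR adjusted p = 0.0853, DESeq2 adjusted p = 0.000634), and Fasn, fatty acid synthase, had a log2 fold change of 1.56 (SE 0.55, DESeq2 adjusted p = 0.0476). Fasn is abundant in fat cells, and the 4 adipocyte genes summed to 672 to 2459 CPM in ApoE-/- and 1344 to 2857 CPM in WT mice. The receptors themselves differed little, with log2 fold changes of -0.15 (SE 0.31) for Nr1h3 and 0.08 (SE 0.10) for Nr1h2, both uncalled. Of 6 further genes of the scavenger receptor cysteine-rich family that were tested, edgeR called 0 and DESeq2 called 3, all higher (Msr1, Cd163l1 and Loxl2). Msr1, the class A receptor for modified lipoprotein, had the largest of these log2 fold changes at 2.15 (SE 0.46, edgeR adjusted p = 0.0829).

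Cd163, the receptor for haptoglobin-bound haemoglobin (chr6:124304656-124330527, plus strand), lay at 73.3, 49.5, 59.1 and 77.6 CPM in WT mice 1 to 4. In ApoE-/- mice it lay at 40.7, 49.5, 43.6 and 127 CPM. The first 3 ApoE-/- mice were at or below the lowest WT mouse and mouse 4 was above all others, so the means nearly coincided at 65.2 ± 41.4 and 64.9 ± 12.9 CPM (SD, n = 4). This gave a log2 fold change of 0.01 (SE 0.38, 95% confidence interval -0.87 to 0.88, adjusted p = 0.999). Without ApoE-/- mouse 4 it was -0.54, still uncalled. Of 9 further genes that handle haemoglobin and haem, 0 passed either test, with 9 of 9 log2 fold changes above 0 and a median of 0.51. Hp, haptoglobin, the ligand of CD163, had the largest of them, at 1.22 (SE 0.48, adjusted p = 0.364).

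Mrc1, the mannose receptor CD206 (chr2:14229392-14332057, plus strand), lay at 80.7, 70.4, 60.7 and 79.0 CPM in WT mice and at 81.5, 112, 97.3 and 259 CPM in ApoE-/- mice. The groups did not overlap, but ApoE-/- mouse 1 was above the highest WT mouse by less than 1 CPM. The log2 fold change was 0.92 (SE 0.36, 95% confidence interval 0.10 to 1.74), with an unadjusted p of 0.0319 and an adjusted p of 0.359 in edgeR and of 0.164 in DESeq2. Left without ApoE-/- mouse 4, Mrc1 was at 0.41 and uncalled, and it was called by DESeq2 without ApoE-/- mouse 1 (1.10, adjusted p = 0.016), a fit that called 5.75% of all genes higher and 4.56% lower. The 3 other genes of its family, Mrc2, Pla2r1 and Ly75, were not called by either tool, and their median was 0.43.

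Lyve1, a hyaluronan receptor of lymphatic endothelium and of adventitial macrophages (chr7:110850607-110863239, minus strand), lay at 38.1, 43.1, 38.5 and 58.9 CPM in WT mice and at 21.1, 37.0, 41.8 and 87.3 CPM in ApoE-/- mice. The ApoE-/- values enclosed the WT values on both sides. Fitted over all mice, the log2 fold change was 0.07 (SE 0.39, 95% confidence interval -0.84 to 0.97, adjusted p = 0.972), and without ApoE-/- mouse 4 it was -0.42. Lymphatic markers were present in every library except Ccl21a, which was at 0 in all 8, and the list summed to 136 to 244 CPM in ApoE-/- mice and 201 to 312 CPM in WT mice. Prox1, the defining factor of lymphatic endothelium, lay at 18.1, 8.83, 10.5 and 9.16 CPM in ApoE-/- mice 1 to 4 and at 16.8 to 18.1 CPM in WT mice (log2 fold change -0.58, SE 0.23, adjusted p = 0.371). How much of the Lyve1 signal came from lymphatic vessels was not tested. Of 10 other genes of hyaluronan synthesis, breakdown and binding, edgeR called 0 and DESeq2 called 3, all higher. These were Cd44, the hyaluronan receptor of leukocytes (log2 fold change 1.47, SE 0.25, edgeR adjusted p = 0.0526, DESeq2 adjusted p = 1.59e-05), the synthase Has2 and the hyaluronan cross-linking protein Tnfaip6.

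Folr2, folate receptor beta (chr7:101839988-101857194, minus strand), lay at 10.8, 6.79, 7.04 and 11.0 CPM in WT mice and at 8.16, 11.9, 11.0 and 27.6 CPM in ApoE-/- mice. The groups overlapped, with ApoE-/- mouse 4 above the rest, and the log2 fold change was 0.72 (SE 0.39, 95% confidence interval -0.18 to 1.61, adjusted p = 0.585), or 0.21 without that mouse. Of the other genes of folate uptake and use, 5 of 6 were tested and 0 passed either test, with a median of 0.16. The profile of Folr2 was close to that of Mrc1, which ranked second among all genes at 0.18 log2, after Ticam2 and before Ptafr.

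Timd4, TIM-4, which binds phosphatidylserine on dying cells and marks long-lived resident macrophages in several tissues (chr11:46810800-46844332, plus strand), varied the least of the 10 genes among ApoE-/- mice. It lay at 1.79, 1.73, 2.05 and 2.35 CPM in WT mice and at 1.83, 1.79, 1.66 and 2.43 CPM in ApoE-/- mice, on 37 to 56 read pairs per library. The log2 fold change was -0.04 (SE 0.21, 95% confidence interval -0.52 to 0.44, adjusted p = 0.970), so the interval leaves room for a change of about 0.5 in either direction.

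Gas6 is a soluble bridge between phosphatidylserine and the receptors TYRO3, AXL and MERTK (chr8:13465374-13494490, minus strand), and smooth muscle and fibroblasts make it as well as macrophages. It lay at 242, 283, 274 and 226 CPM in WT mice and at 227, 379, 470.3 and 455 CPM in ApoE-/- mice. ApoE-/- mouse 1 was within the WT range and the other 3 were above it. For Gas6 the log2 fold change was 0.58 (SE 0.23, 95% confidence interval 0.05 to 1.11), with an unadjusted p of 0.036 and an adjusted p of 0.377. Without ApoE-/- mouse 1 it was 0.76, and the adjusted p was 0.0234 in edgeR and 4.19e-06 in DESeq2. Without that mouse 2.75% of all genes were called higher in edgeR and 5.75% in DESeq2. Over the 8 edgeR fits without 1 mouse the log2 fold change of Gas6 ran from 0.46 to 0.76. Each tool called Gas6 in 1 of its 8 such fits. The closest profiles were those of Plat, tissue plasminogen activator, at 0.07, Fam129b at 0.08 and Osmr, the oncostatin M receptor, at 0.09. Tmem255b overlaps Gas6 on the opposite strand, and the deposited counts are named as stranded.

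Of the 16 tested genes for the recognition and engulfment of dying cells, 1 was called by edgeR. It was Havcr2, TIM-3, a relative of TIM-4, which rose from 0.335 to 0.643 CPM in WT mice to 1.58 to 6.08 CPM in ApoE-/- mice (log2 fold change 3.06, SE 0.48, adjusted p = 0.0462). The receptors of GAS6 were uncalled, with log2 fold changes of 0.08 (SE 0.26) for Axl, 0.20 (SE 0.33) for Mertk and 1.14 (SE 0.56) for Tyro3, the last carried by ApoE-/- mouse 1 at 43.5 CPM against 6.60 to 13.9 CPM in the other ApoE-/- mice. The median over the list was 0.29.

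F13a1, the A subunit of the transglutaminase factor XIII, which cross-links fibrin and is made by macrophages and platelets (chr13:36867178-37050244, minus strand), lay at 98.2, 80.2, 90.2 and 87.3 CPM in WT mice. In ApoE-/- mice it lay at 63.4, 91.8, 85.4 and 234 CPM. Only mouse 4 was above the WT range, and mouse 1 was below it. With all mice the log2 fold change was 0.41 (SE 0.38, 95% confidence interval -0.46 to 1.29, adjusted p = 0.793), and without ApoE-/- mouse 4 it was -0.15. Platelet genes were low and followed the same mouse, with a summed level of 7.92 to 12.1 CPM in ApoE-/- mice 1 to 3, of 25.3 CPM in mouse 4 and of 10.6 to 15.2 CPM in WT mice. Their part in the F13a1 values was not tested. Of 8 genes of transglutaminases and fibrin, 5 were tested and 0 passed either test.

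Cbr2, a carbonyl reductase found in resident macrophages and in several epithelia (chr11:120729489-120732114, minus strand), lay at 74.8, 69.1, 81.6 and 45.0 CPM in WT mice and at 31.3, 111, 107 and 108 CPM in ApoE-/- mice. ApoE-/- mouse 1 was the lowest of all 8 and the other 3 were above every WT mouse. The resulting log2 fold change was 0.40 (SE 0.38, 95% confidence interval -0.49 to 1.28, adjusted p = 0.802). It was 0.68 without ApoE-/- mouse 1, with an adjusted p of 0.0903 in edgeR and of 0.0188 in DESeq2, a fit that called 5.75% of all genes higher. The closest profiles were Lhfp at 0.11, Tnfrsf12a, the TWEAK receptor, at 0.13, and Vasn, a vascular inhibitor of TGF-beta, at 0.18. In each genotype the mouse with the lowest Cbr2 also had the lowest summed smooth muscle level (5048 CPM in ApoE-/- mouse 1 and 11174 CPM in WT mouse 4). The 2 levels did not go together throughout. ApoE-/- mouse 4 had a smooth muscle sum of 12552 CPM, against 20563 and 19499 CPM in mice 2 and 3, with a similar Cbr2 level in all 3. Whether Cbr2 came from macrophages here was not tested. The 4 other carbonyl reductases tested were uncalled, with a median of 0.24.

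Adgre1 encodes the adhesion receptor that most mouse macrophages carry, resident or recruited (chr17:57358691-57483527, plus strand). It lay at 19.6, 17.3, 14.2 and 17.3 CPM in WT mice and at 23.2, 34.2, 36.7 and 70.7 CPM in ApoE-/- mice. The groups did not overlap. The log2 fold change was 1.27 (SE 0.32, 95% confidence interval 0.53 to 2.00), with an adjusted p of 0.128 in edgeR, 0.00724 in DESeq2, and 0.0244 in edgeR without ApoE-/- mouse 1. That last fit called 2.75% of all genes higher. The DESeq2 call was lost without WT mouse 3, the lowest of all, at an adjusted p of 0.0597. The closest profiles were Marchf1 at 0.10, Tlr7 at 0.14 and Milr1 at 0.14, all genes of leukocytes. The 3 other genes listed with it, Adgre4, Adgre5 and the ADGRE5 ligand Cd55, were uncalled, with log2 fold changes of 0.51, 0.05 and -0.03.

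**Figure D2:**
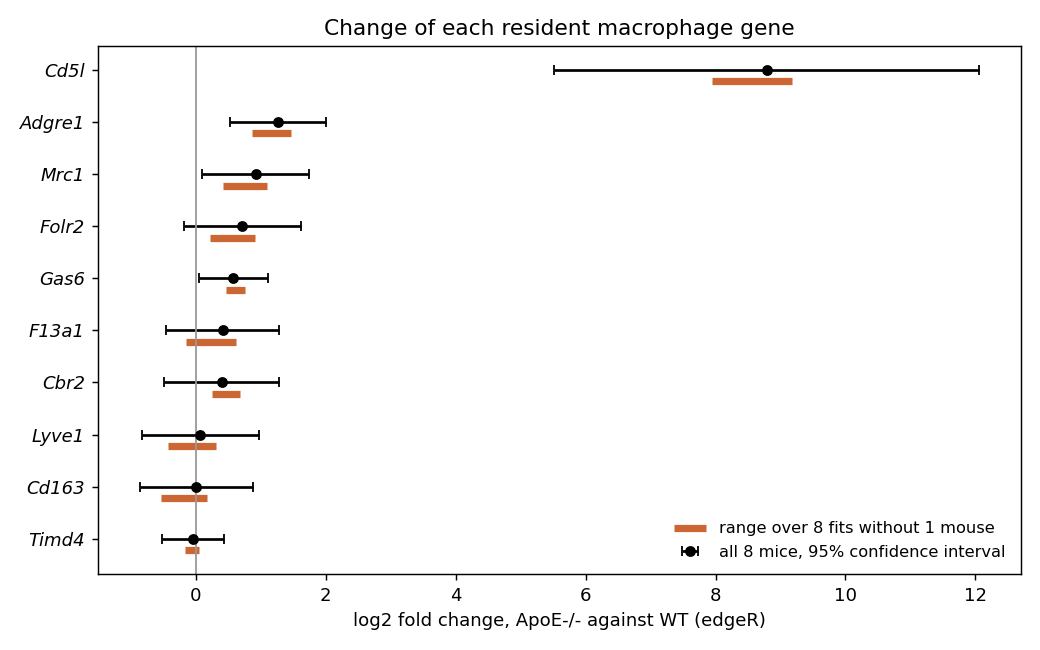
Log2 fold change of each resident macrophage gene, ApoE-/- against WT (edgeR, 4 mice per group), as a black point with its 95% confidence interval, above an orange bar for the range over the 8 fits that each leave out 1 mouse. The intervals of Cd5l, Adgre1, Mrc1 and Gas6 lie above 0 before adjustment, while the orange bars of F13a1, Lyve1, Cd163 and Timd4 cross 0.

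The spread among ApoE-/- mice was shared by most of these genes. ApoE-/- mouse 4 was the highest of its group in 8 of the 10 genes and mouse 1 the lowest in 9 of 10, and the mean of the general macrophage reference genes was likewise highest in mouse 4 and lowest in mouse 1. The highest ApoE-/- mouse exceeded the lowest by 2.08-fold (Gas6) to 4.13-fold (Lyve1), with Timd4 below this at 1.47 and Cd5l above it at 75.5. In WT mice the same ratio was 1.22 (F13a1) to 1.81 (Cbr2), and 3.46 for the few read pairs of Cd5l.

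Per kilobase of exon, WT aortas held Gas6 first at 101 ± 10.5 CPM per kb (SD, n = 4), then Cbr2 at 51.0 ± 12.0. A group of 4 followed whose neighbours overlapped in range, Lyve1 (15.3 ± 3.34), F13a1 (13.2 ± 1.10), Cd163 (11.9 ± 2.37) and Mrc1 (11.4 ± 1.44). Folr2 (5.76 ± 1.49) and Adgre1 (5.29 ± 0.685) overlapped each other, and Timd4 (0.911 ± 0.129) and Cd5l (0.123 ± 0.0556) were the lowest. The 8 genes down to Adgre1 were readily measured in the healthy wall, whereas Cd5l was nearly absent from it, so the name of the list did not describe Cd5l in these WT aortas. In ApoE-/- aortas Cd5l stood next after Gas6 (150.2 ± 43.7) and Cbr2 (67.2 ± 29.1), at 56.4 ± 57.3 CPM per kb. It was followed by Mrc1 (21.6 ± 12.9), F13a1 (17.6 ± 11.5), Lyve1 (16.0 ± 9.73), Adgre1 (12.7 ± 6.35), Cd163 (11.9 ± 7.58), Folr2 (9.47 ± 5.67) and Timd4 (0.886 ± 0.158). Only Gas6 and Cbr2, and Folr2 and Timd4, were neighbours whose ranges did not overlap in ApoE-/- mice.

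To set the resident genes against macrophage RNA as a whole, the log2 CPM of each was expressed relative to the mean log2 CPM of the 12 reference genes in the same mouse. This reference was 5.37 ± 0.70 (SD, n = 4) in ApoE-/- mice and 3.94 ± 0.14 in WT mice. Relative to it, 8 of the 10 resident genes were lower in every ApoE-/- mouse than in any WT mouse, Cbr2 was lower with overlap, and Cd5l was higher in every ApoE-/- mouse. A gene that does not change at all falls on this scale, and 69.9% of all genes tested were lower without overlap, with a median difference of -1.42 over all genes and of -1.03 over the 10. The count of 8 is therefore near the background. A relative level that was higher in every ApoE-/- mouse than in any WT mouse, as that of Cd5l was, was found for 0.405% of all genes. Since Cd5l passed the filter only through its counts in ApoE-/- mice, its separation was close to fixed in advance. The share of all genes is therefore not a fair background for it.

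The relative level differed most between genotypes, apart from Cd5l, for Cd163, from 2.06 ± 0.25 in WT to 0.49 ± 0.35 in ApoE-/- mice (difference -1.57), for Lyve1 (difference -1.52) and for Timd4 (difference -1.47). F13a1 (-1.20), Cbr2 (-1.16), Gas6 (-0.89), Folr2 (-0.84) and Mrc1 (-0.65) lay between. The relative level of Adgre1 differed least, at 0.15 ± 0.06 in WT and -0.12 ± 0.09 in ApoE-/- mice (difference -0.27). Cd5l moved from -5.56 ± 0.43 to 0.29 ± 2.11 (difference 5.84). The exact two-sided permutation test over the 70 assignments of the 8 mice gave p = 0.0286, the smallest that it can give, for 9 genes and p = 0.0571 for Cbr2, without adjustment for the 10 tests. Every gene without overlap reaches this smallest p, which on this scale held for 69.9% of all genes in the lower and 0.405% in the higher direction, so for the genes that were lower it says nothing particular to them. For Cd5l it is no evidence either, because this gene entered the test only through the ApoE-/- mice. The differences of Cd163, Lyve1 and Timd4 lay near the median of all genes (-1.42).

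**Figure D3:**
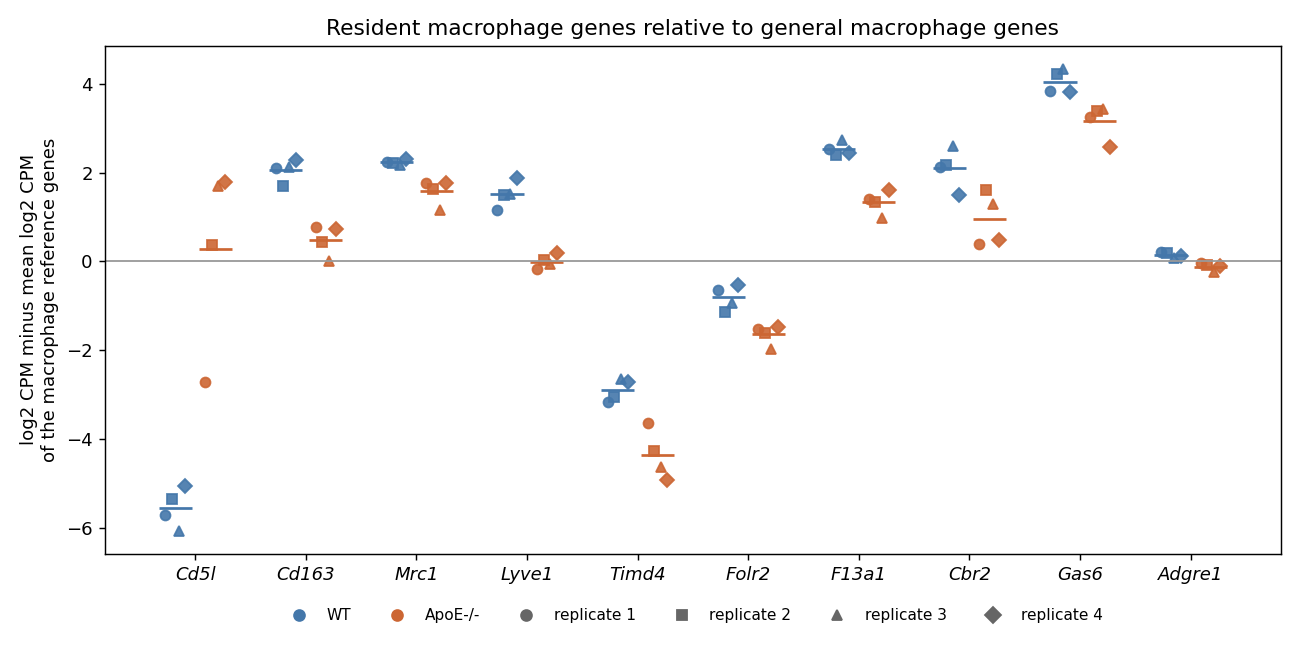
Log2 CPM of each resident macrophage gene minus the mean log2 CPM of 12 general macrophage genes in the same mouse, for 4 WT (blue) and 4 ApoE-/- (orange) mice, with the mean of each group as a bar. In 8 genes the ApoE-/- mice all lie below the WT mice, as 69.9% of all genes do, in Cbr2 they overlap, and in Cd5l they all lie above.

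Beside other macrophage genes, the median of the 10 resident genes (0.50) lay below that of the general reference and above that of a further list of 14 resident-type genes. All 12 reference genes had log2 fold changes above 0 (median 1.60), 11 without overlap, with 1 called by edgeR (Fcgr1, the high-affinity IgG receptor, 2.32, SE 0.28, adjusted p = 0.0355) and 9 by DESeq2. In the further resident-type list, 13 of 14 were above 0 with a median of 0.34, edgeR called 0 and DESeq2 called 2, both higher. These were Siglec1, the sialoadhesin receptor (log2 fold change 1.02, SE 0.20, DESeq2 adjusted p = 0.000323), and the chemokine Ccl8 (2.83, SE 0.55, DESeq2 adjusted p = 1.02e-05). The other 12 genes of that list were uncalled, from -0.21 (SE 0.32) for Ltc4s to 1.27 (SE 0.53) for Vsig4, a complement receptor without overlap between the groups. Between these lay 0.91 (SE 0.39) for Clec10a, 0.57 (SE 0.36) for Mgl2, 0.51 (SE 0.42) for Fcna, 0.02 (SE 0.39) for Cd209g, 0.11 (SE 0.37) for Cd209f, 0.25 (SE 0.23) for Stab1 and 0.29 (SE 0.38) for Pf4.

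Among 13 foamy macrophage genes, 10 were above 0 (median 0.99), and edgeR called 3, Trem2 (4.10, SE 0.62, adjusted p = 0.0434), Itgax (4.44, SE 0.61, adjusted p = 0.038) and Mmp12. DESeq2 called 8, all higher. Cd36, Lpl and Plin2 of this list, which fat cells also make, had log2 fold changes of -0.69 to -0.34. Cd5l had a larger log2 fold change than any gene of these lists. In 5 tested inflammatory genes the median was 1.85, with Cxcl2 called by edgeR and 4 by DESeq2, and in 5 tested monocyte genes it was 1.33, with 0 called by edgeR and 2 by DESeq2. Cxcl2 and Ccl3 of the inflammatory list passed the filter only through their counts in ApoE-/- mice. Both therefore had to be higher in order to be tested. Of the genes that feed macrophages, Csf1 had a log2 fold change of 0.38 (SE 0.17) and Il34 of -0.34 (SE 0.28), both uncalled, and of the 5 of 6 growth factor genes tested DESeq2 called only Csf2ra and Csf2rb, both higher.

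**Figure D4:**
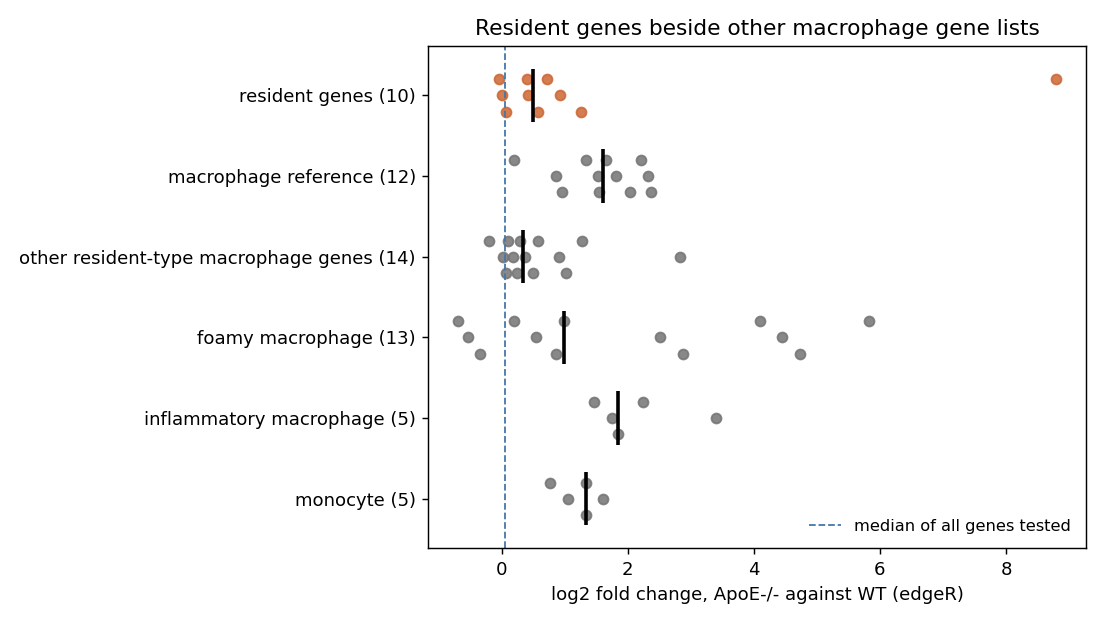
Log2 fold change (edgeR, ApoE-/- against WT) of each gene in 6 macrophage gene lists, the 10 resident genes in orange and the others in grey, with a black bar at the median of each list and a dashed line at the median of all genes tested (0.05). The medians are 0.50 for the resident genes and 1.60 for the general reference, and the resident gene on the far right is Cd5l at 8.79.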

How the data were processed

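The aorta of each of 8 mice (4 ApoE-/- and 4 WT) was one library of ribodepleted, stranded total RNA, sequenced in pairs. The authors deposited a raw count of read pairs for each gene, with no normalization. The submitters' processing notes name TopHat2, HTSeq, GRCm38 and mm10, and the annotation is not given in the sources used here. Of the gene identifiers, 21191 matched GENCODE M21 with their version, which gave coordinates and exon lengths, and 668 did not. Rows that name no gene took 64.4% to 72.1% of pairs and were left out.

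Genes were filtered with filterByExpr and tested with edgeR 4.0.16 (TMM, glmQLFit with robust = TRUE, glmQLFTest) in R 4.3.3, with genotype as the only factor and a threshold of 0.05 on the adjusted p. The SE is the log2 fold change divided by the square root of F. DESeq2 1.42.0, the tool the study names, and limma-voom (limma 3.58.1), other scaling factors, other filters, a replicate block and fits without each mouse in turn were alternatives. Relative levels used log2 CPM with a prior count of 2. For these an adjustment over the 10 genes was planned, but the p-values are printed unadjusted because the genes were chosen with results known.

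The genes, the 19 marker lists and the 11 pathway lists were chosen with earlier results of these data known. Named were the 10 genes, the 3 closest profiles of each, reference and marker genes that bear on them, and list members past a threshold or central to a pathway. An item of these lists is not reported here and was left out of their counts. Promoters of 8 of the 10 genes were in the RefSeq table (GRCm38.p6).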

Additional observations from a re-analysis of the deposited data

Results flagged for a closer look

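In 3 of 44 groups of 4 values (the CPM and the relative level of each of the 10 resident genes, the read pairs on genes and their share of all pairs, in each genotype) a single mouse lay far from the other 3, where chance gives about 2.2. Cbr2 in ApoE-/- mouse 1 was at 31.3 CPM against 107 to 111 CPM in the others, a gap of 0.951 of the range. Cd163 in ApoE-/- mouse 4 was at 127 CPM against 40.7 to 49.5 CPM, a gap of 0.898 of the range. F13a1 in ApoE-/- mouse 4 was at 234 CPM against 63.4 to 91.8 CPM, a gap of 0.833 of the range.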

How the results depend on the processing

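The counts called depended on the test and on single mice more than on scaling. Of the 10 genes, edgeR called 0 higher, DESeq2 2, and edgeR without robust estimation 1 (Cd5l). With a mouse left out, edgeR called 0 to 3 and DESeq2, added after the data were seen, 1 to 5, the most in both without ApoE-/- mouse 1, where they called 2.75% and 5.75% of all genes higher. None was called lower under any setting. Over all genes, edgeR called 56 higher and 14 lower, DESeq2 470 and 255, limma-voom 21 and 8, a filter of at least 10 counts in every mouse, which removes Cd5l, 41 and 9, and leaving out a mouse 0 to 417 and 0 to 176 (291 to 871 and 141 to 691 in DESeq2). Replicate numbers are shared between genotypes, and the labels do not say whether they pair mice. Correlations of the deviations from the group mean ran from -0.45 to 0.32 for same-numbered mice. For other-numbered mice they ran from -0.67 to 0.67. The replicate block called 1 gene higher and 1 lower, with 0 of the 10 genes.

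Signs changed for 4 of the 10 genes, each uncalled (Cd163, Lyve1 and Timd4, near 0 with all mice, and F13a1, at 0.41 with all mice). Cd163 was -0.0024 in DESeq2, -0.14 in limma-voom, -0.0025 with DESeq2's factors, -0.029 with upper-quartile factors and -0.15 with the block, and Lyve1 was -0.098 in limma-voom and -0.093 with the block. Leaving out a mouse gave ranges in edgeR of -0.54 to 0.17 (Cd163), -0.42 to 0.31 (Lyve1), -0.15 to 0.62 (F13a1) and -0.17 to 0.053 (Timd4), and in DESeq2 of -0.55 to 0.17, -0.43 to 0.30, -0.16 to 0.62 and -0.18 to 0.044. Within the DESeq2 ranges, the sign also changed for Cd163 without WT mouse 2 (-0.11) or 3 (-0.044), Lyve1 without WT mouse 1 (-0.012) or 3 (-0.0049) and Timd4 without ApoE-/- mouse 3 (0.017). The other 6 genes were above 0 in every fit that held them. The causes were not tested. With Ptprc or Cd68 alone as the reference, 6 and 9 of the 10 genes were lower without overlap, against 81.4% and 73.2% of all genes, and Cd5l was higher in both, against 0.305% and 0.159%. For Cd5l these shares are not a fair background, because it entered the test only through the ApoE-/- mice.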

Other observations

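Other cells of the vessel wall were measured by short marker lists, and edgeR called 0 genes in each of those that follow. DESeq2 called 2 of 6 fibroblast genes, both higher in ApoE-/- mice, the collagen-binding proteoglycan Lum (log2 fold change 2.34, SE 0.40) and Col1a1 (1.23, SE 0.41). Of 4 tested proliferation genes, 4 were above 0 with a median log2 fold change of 1.03, and DESeq2 called Top2a. The alarmin S100a9, the only neutrophil gene with enough counts, had a log2 fold change of 2.25 (SE 0.45, DESeq2 adjusted p = 0.00174). B cell genes had a median of 1.29 over 5 genes with 0 called by DESeq2. Lower in DESeq2 were Cdh5 of blood endothelium (-0.37, SE 0.11), Clec9a of dendritic cells (-0.37, SE 0.11) and 4 of 7 cardiac muscle genes, whose median was -2.77. Clec9a went against most of its list, in which 4 of 6 genes were above 0, with a median of 0.36. In blood endothelium 1 of 5 genes was above 0, with a median of -0.32. Among lymphatic markers DESeq2 called Pdpn, higher, and among smooth muscle, adipocyte, platelet, spleen and liver macrophage and hepatocyte markers it called 0. Pdpn went against its list, in which 1 of 5 tested genes was above 0 and the median was -0.45.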
